A study of Mus musculus with 43 samples.

Results

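The genes of the proteasome were followed through 43 RNA-seq libraries of PD798, a mouse pancreatic tumor line. They were chosen by name alone, as every gene whose symbol starts with Psma, Psmb, Psmc, Psmd, Psme, Psmf or Psmg and then a digit, with the immunoproteasome genes Psmb8, Psmb9 and Psmb10 set aside. The rule found 45 genes, all of them in both deposited tables, which list 13845 and 13817 genes. Of the 45 genes, 14 encode subunits of the 20S core particle, 17 encode subunits of the 19S regulatory particle, 7 encode chaperones that assist in assembling these particles and 5 encode other proteins that bind the core, namely the PA28 subunits Psme1, Psme2 and Psme3, the PA200 activator Psme4 and the inhibitor PI31 (Psmf1). The remaining 2 only share the name. Psmc3ip encodes a protein of meiotic recombination that was named for binding Psmc3, and Psme2b is a close copy of Psme2.

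The proteasome is the protease that removes most short-lived and damaged proteins of the cytosol and nucleus. Its 20S core is a barrel of alpha and beta rings with the peptide-cutting sites on Psmb5, Psmb6 and Psmb7 inside. The 19S particle caps the barrel, recognises ubiquitin chains, removes them through the deubiquitinase Psmd14, and unfolds the substrate with a ring of ATPases, Psmc1 to Psmc6. Every dividing cell needs the complex, and for this reason its genes are often used as housekeeping genes. The study did so itself, with Psmb2 and Psmb4 on the targeted gene panel by which it judged whether a sorted single cell was intact.

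PD798 is a line grown from a tumor of a genetically engineered mouse. Among its alleles are Pdx1-Cre, which expresses Cre from a pancreatic promoter, and p53 L/+, of which Cre removes a copy. The line also carries Rosa YFP/YFP, a fluorescent reporter, and all libraries share these alleles and this single line. In the processing experiment, RNA of many cells was sequenced from 4 conditions with 3 libraries each: Pre-FACS (an aliquot banked without treatment), Mock (cells held in staining buffer on the bench), FACS-only (cells of the same sample as Pre-enriched, passed through the BD Influx sorter without pre-enrichment) and Pre-enriched (cells incubated with magnetic particles and red cell lysis buffer, pre-enriched and sorted on the BD Influx). In the input series, cells that had been spiked into normal mouse blood, pre-enriched and sorted were sequenced as 11 single cells, 12 pools of 10 cells and 6 pools of 100 cells, beside 2 libraries of bulk RNA of the line. The labels of the processing conditions speak of blood as well, which the description of that experiment does not, and the labels give the bulk RNA the same flow treatment as the sorted cells, so neither point is settled here. No separate cultures or animals are named, so p-values measure only the spread between these libraries, which may be technical.

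Values are TPM (transcripts scaled to a fixed total per library and corrected for gene length) as deposited, without read counts, so the depth of each library is unknown. Of 6 epithelial markers, Krt8, Krt18 and Krt19 were at 237, 1721 and 812 TPM or more in every library, and Cdh1 was at 16.7 TPM or more. Epcam and Cldn7 had medians of 35.03 and 4.74 TPM in the processing experiment and 831 and 600.1 TPM in the input series, where Epcam reached 1 TPM in 29 of 31 libraries, while Cdh1 had medians of 1006 and 107 TPM. The cause of these differences between the tables was not tested. Of 17 genes of leukocytes, platelets, erythroid cells and neutrophils only 5 were listed in each table. Coro1a, Itga2b and Alas2 are in both tables, Ptprc and Laptm5 only in that of the processing experiment, and S100a8 and S100a9 only in that of the input series, so the sums of the 5 cannot be compared between tables. The sum was between 1.34 and 6.80 TPM in the processing experiment. In the input series it was between 0 and 322 TPM in single cells, between 0.310 and 113 TPM in 10-cell pools, between 42.2 and 154 TPM in 100-cell pools and between 47.8 and 63.2 TPM in bulk RNA. Of those genes Coro1a and Itga2b stayed at or under 4.00 and 1.79 TPM in the input series, while Alas2, S100a8 and S100a9 reached 278, 128 and 88.0 TPM. The genes listed held the whole TPM total in the processing experiment but as little as 54.2% of it in the input series, where 5 of the 11 single cells (cells 5, 7, 8, 10 and 11) were under 80%.

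The subunits lay within a narrow range of levels. Over the 12 libraries of the processing experiment the 14 core genes had mean levels between 226 TPM (Psmb5, the chymotrypsin-like site) and 505 TPM (Psma2, of the alpha ring), a 2.24-fold range. The 17 regulatory genes lay between 167 TPM (Psmd11) and 524 TPM (Psmd8), both of the lid, a 3.14-fold range. The 6 ATPases spanned only 1.42-fold, from Psmc3 at 227 TPM to Psmc1 at 323 TPM. Among the base subunits that are not ATPases, the scaffold Psmd2 was highest at 475 TPM and its partner scaffold Psmd1 lowest at 239 TPM. Noncatalytic beta subunits ran from 319 TPM (Psmb3) to 416 TPM (Psmb1), and Psma4 at 270 TPM was the lowest of the alpha ring.

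Genes that act on the particles but are not built into them were mostly lower, although Psmd5 and Psme3 lay above the lid genes Psmd11 and Psmd13 (167 and 173 TPM). The 4 chaperones of core assembly lay between 32.2 TPM (Psmg4) and 111 TPM (Psmg2), and the 3 of base assembly between 28.1 TPM (Psmd9) and 184 TPM (Psmd5). The PA28 genes reached 142 to 191 TPM, of which Psme2 was lowest and Psme3 highest, whereas Psme4 had 34.0 TPM and Psmf1 30.3 TPM. Psmc3ip and Psme2b were lowest of all at 24.0 and 9.94 TPM. In the reference transcripts 66.2% of the 31-base words of Psme2 also occur in Psme2b, so the division of reads between them is uncertain. Of the words of Psmb5 and Psmb3, 74.0% and 66.8% also occur in transcripts of other genes, pseudogenes among them, and their levels carry the same uncertainty.

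**Figure D1:**
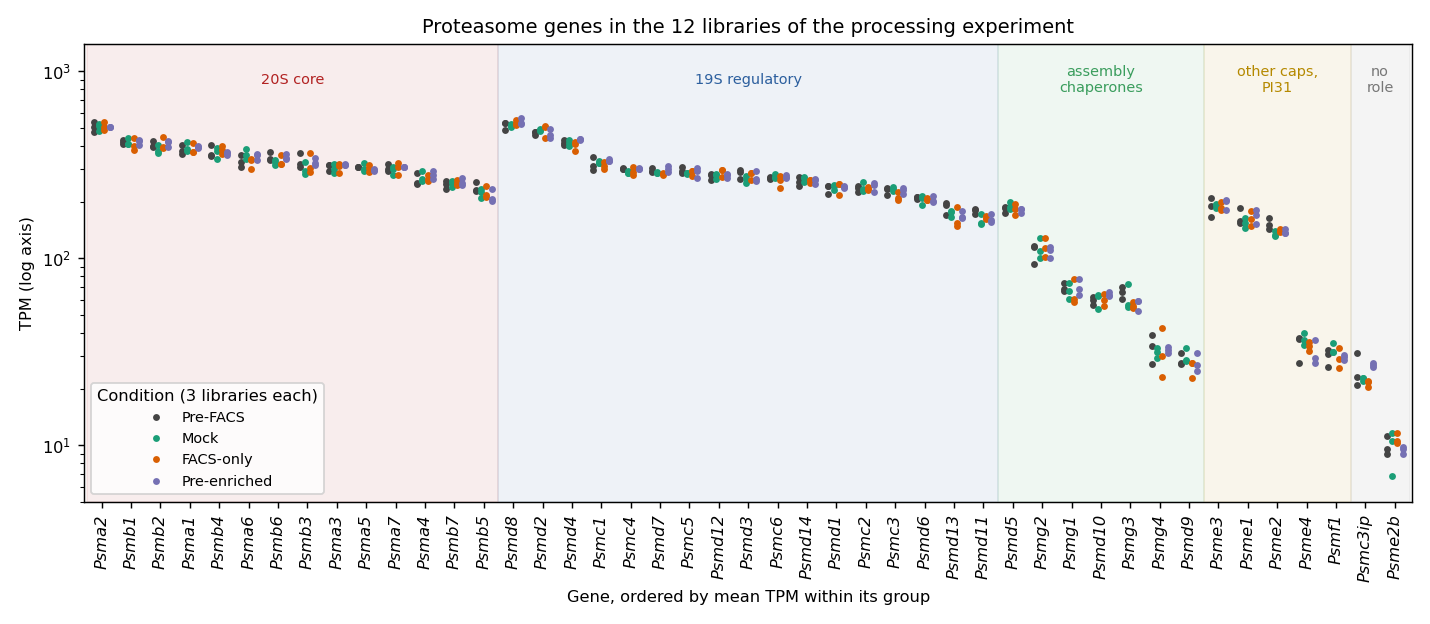
TPM (log axis) of each of the 45 genes in the 12 libraries of the processing experiment, with 1 point per library coloured by condition and genes ordered by mean level within 5 groups. Core and regulatory subunits lie within the range of 149 to 564 TPM, chaperones and other caps lie mostly lower, and the 4 colours overlap for nearly every gene.

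Replicates of a gene were tight. The coefficient of variation over all 12 libraries, conditions included, had a median of 5.03% in the core genes, 4.22% in the regulatory genes and 5.29% in all 45. The base ATPase Psmc4 varied least (3.03%) and the chaperone Psmg4 most (15.6%). Genes of like level were just as steady: 998 other genes with means in the range of the core and regulatory subunits had a median of 5.21%. The median was 10.4% over the 12159 genes that passed the filter on low values, which asked for 1 TPM or more in 3 or more of the libraries. All 45 proteasome genes passed that filter.

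The processing experiment asks whether sorting and pre-enrichment alter expression. None of the 45 genes differed among the 4 conditions in limma's F test on log2(TPM + 1), where the lowest Benjamini-Hochberg adjusted p was 0.635. Across all 12159 genes tested, 0.107% passed this test. Without adjustment, 1 of the 45 genes had a p under 0.05, and 7.56% of all genes did. The same held for each pair of conditions. No proteasome gene passed the threshold of 0.05 in Pre-enriched against Pre-FACS (0.0493% of all genes passed), in FACS-only against Pre-FACS (0.123%) or in Mock against Pre-FACS (0.00822%), and none did in Pre-enriched against FACS-only, Pre-enriched against Mock or FACS-only against Mock, in which 0% of all genes passed. Without adjustment, the genes of the family with a p under 0.05 were 3 of 45 lower in Pre-enriched than in Pre-FACS (5.46% of all genes), 2 lower in FACS-only (3.21%) and 2 lower in Mock (2.3%). Another 2 were higher in Pre-enriched than in FACS-only (2.22%), 2 were lower in FACS-only than in Mock (2.45%), and none had such a p between Pre-enriched and Mock (7.77%). These unadjusted counts moved with the settings of the fit, from 1 to 8 genes in Pre-enriched against FACS-only, for example.

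The 95% intervals each hold for 1 gene alone and rest only on the spread between these libraries. In Pre-enriched against Pre-FACS the median difference of the 14 core genes was 0.01 on the log2(TPM + 1) scale, and their 95% intervals together ran from -0.30 to 0.22. The 17 regulatory genes had a median of 0.01 and intervals from -0.31 to 0.19. Over all genes tested the median was -0.01. For FACS-only against Pre-FACS the median difference was -0.01 in the core and -0.03 in the regulatory genes, with intervals from -0.23 to 0.17 and from -0.36 to 0.19. For Mock against Pre-FACS the medians were -0.01 and 0.00, with intervals from -0.32 to 0.26 and from -0.29 to 0.18.

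**Figure D2:**
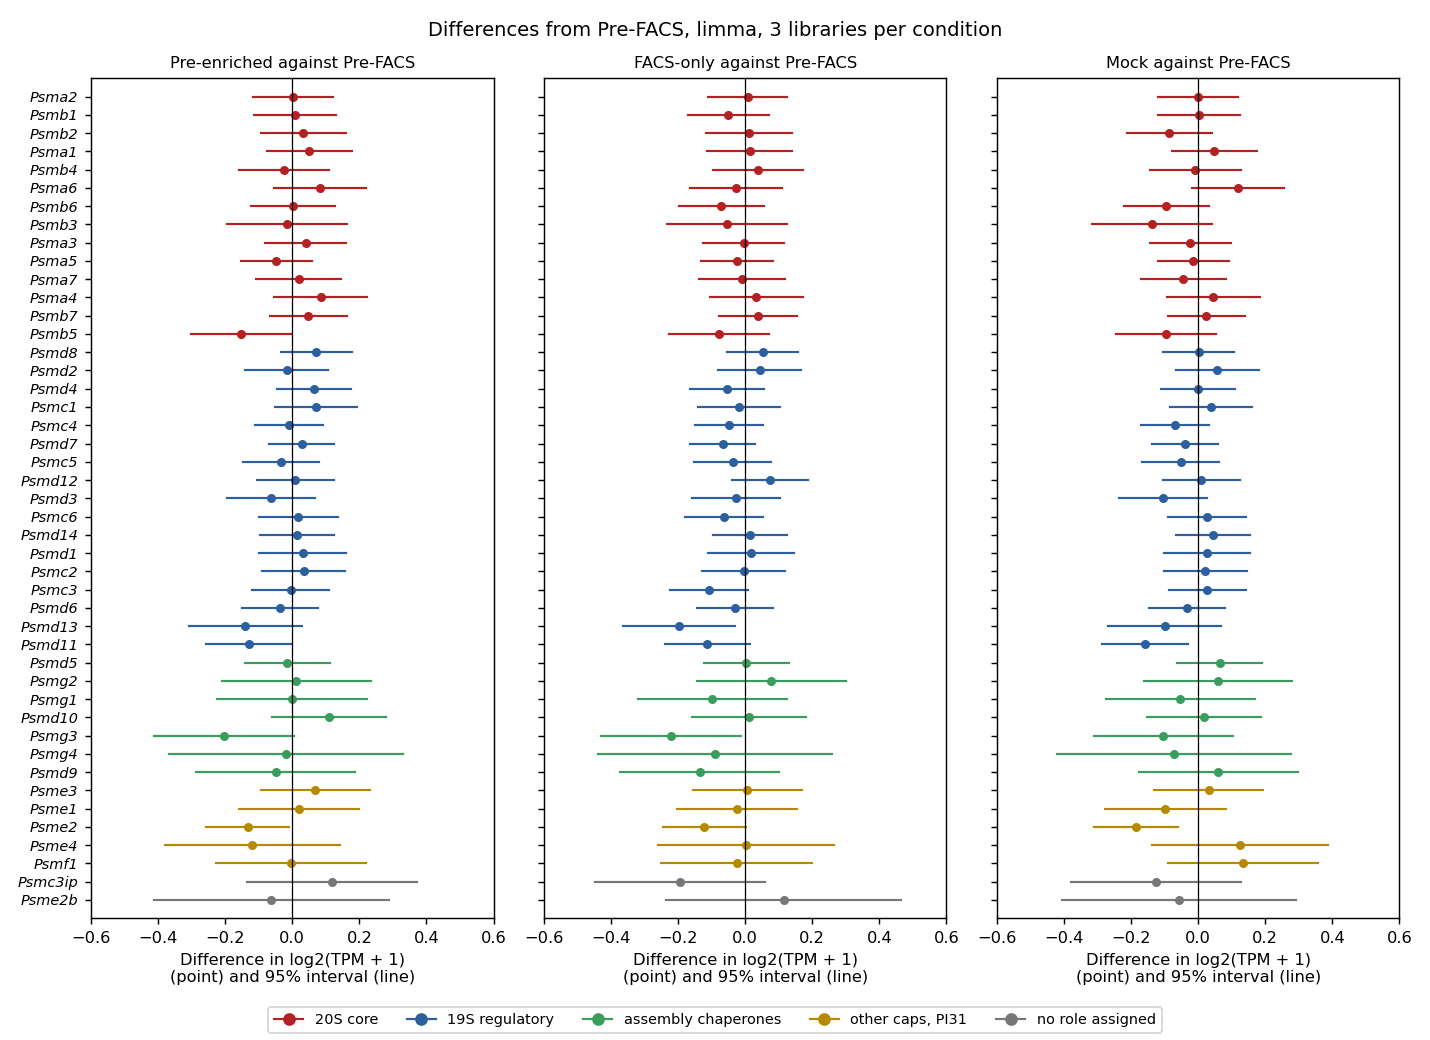
Difference from Pre-FACS in log2(TPM + 1) for each gene in Pre-enriched, FACS-only and Mock cells (points), with the 95% interval of limma (lines) and 3 libraries per condition. Core genes (red) and regulatory genes (blue) centre on 0, and intervals are widest among genes of low level.

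The genes nearest to a difference were small in effect. Psme2, a subunit of the PA28 cap, had 165, 144 and 150.5 TPM in Pre-FACS beside 132, 139 and 132 TPM in Mock. Its FACS-only libraries had 144, 139 and 139 TPM and its Pre-enriched libraries 137, 144 and 137 TPM. All values of the other 3 conditions lay below the lowest Pre-FACS value, by less than 1 TPM at the nearest. The difference from Pre-FACS was -0.18 ± 0.06 in Mock and -0.13 ± 0.06 in Pre-enriched (SE, n = 3) on the log2 scale, with adjusted p of 0.997 and 0.517 from limma. Psmd11, a lid subunit, had 181, 172 and 183 TPM in Pre-FACS and 172, 155 and 153 TPM in Mock, and the highest Mock value overlapped the lowest Pre-FACS value. Its differences were -0.16 ± 0.06 in Mock and -0.13 ± 0.06 in Pre-enriched (SE, n = 3, adjusted p of 0.997 and 0.539 from limma).

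The core gene Psmb5 had 254, 228 and 233 TPM in Pre-FACS and 233, 209 and 202 TPM in Pre-enriched, so the groups overlapped (-0.15 ± 0.07, SE, n = 3, limma adjusted p of 0.537). The lid gene Psmd13 had 171, 192 and 197 TPM in Pre-FACS and 149, 187 and 154 TPM in FACS-only, again overlapping (-0.20 ± 0.08, limma adjusted p of 0.612). In FACS-only, the core assembly chaperone Psmg3 stood at 58.2, 55.3 and 54.4 TPM beside 69.9, 66.2 and 60.4 TPM in Pre-FACS, and the ranges did not overlap (-0.22 ± 0.10, limma adjusted p of 0.673).

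Pre-enriched and FACS-only cells were both sorted, and by the study's account they differ in the pre-enrichment step. Psmc3ip had 27.5, 27.0 and 26.4 TPM in Pre-enriched and 21.7, 22.2 and 20.6 TPM in FACS-only, without overlap, and its difference of 0.31 ± 0.12 (SE, n = 3) had a limma adjusted p of 0.715. The ubiquitin receptor Psmd4 had 434, 430 and 436 TPM against 419, 373 and 406 TPM, also without overlap (0.12 ± 0.05, limma adjusted p of 0.716). Between FACS-only and Mock, the ATPase Psmc3 had 206, 225 and 210 TPM against 230, 240 and 234 TPM, and the alpha subunit Psma6 had 339, 336 and 302 TPM against 341, 384 and 356 TPM. Neither passed the test (differences of -0.14 ± 0.05 and -0.15 ± 0.06, limma adjusted p of 0.863 and 0.875).

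Neither Psmb2 nor Psmb4, the proteasome genes of the study's panel, passed the test. Psmb2 had 422, 397 and 392 TPM in Pre-FACS and 365, 404 and 373 TPM in Mock. FACS-only cells had 443, 392 and 388 TPM of it and Pre-enriched cells 420.3, 395 and 424 TPM. Its 4 groups overlapped, its coefficient of variation was 5.62%, and its adjusted p in limma's F test was 0.821. Psmb4 had 402, 351 and 357 TPM, 339, 388 and 377 TPM, 400.1, 379.5 and 360.0 TPM and 365, 369 and 356 TPM in the same order, a coefficient of variation of 5.29% and an adjusted p of 0.957. Of the 45 genes, 22 varied less than Psmb4 and 26 less than Psmb2.

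The balance of both particles was compared next. The log2 ratio of the median core level to the median regulatory level in a library was 0.26 ± 0.16 for Pre-FACS and 0.22 ± 0.05 for Mock (mean ± SD, n = 3 each). It was 0.20 ± 0.14 for FACS-only and 0.30 ± 0.08 for Pre-enriched (mean ± SD, n = 3 each). The ranges overlapped in all 4 conditions, from 0.09 to 0.44 over the 12 libraries. Library 1 was highest in Pre-FACS (0.44), FACS-only (0.36) and Pre-enriched (0.39), whereas library 2 was highest in Mock (0.26). The SD may therefore hold differences shared by a number. Core genes took 0.449% to 0.5005% of the TPM of a library and regulatory genes 0.480% to 0.503%.

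Genes around the proteasome were read from a list of 32 symbols, of which 28 were tested. None passed limma's test among the 4 conditions at a Benjamini-Hochberg adjusted p under 0.05. Adrm1, a 19S subunit whose symbol lacks the Psm stem, had 201, 197 and 212 TPM in FACS-only and 179, 180 and 187 TPM in Mock, without overlap, and differed by 0.16 ± 0.05 (SE, n = 3, limma adjusted p of 0.803). Pomp, which guides core assembly, had a mean of 235 TPM in Pre-FACS, 231 TPM in Mock, 213 TPM after FACS alone and 222 TPM after pre-enrichment. Nfe2l1, a transcription factor that raises proteasome genes when the protease is inhibited, had means of 201, 195, 187 and 188 TPM in the same order of conditions. The immunoproteasome gene Psmb10 was the only one of its 3 in this table, at 18.2, 13.6, 15.4 and 15.1 TPM.

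The 4 stretches printed next are the promoters of the core and regulatory subunits that carry TGACNNNGC, the core of the antioxidant response element that Nfe2l1 and Nfe2l2 bind, within the 250 bases before the annotated start. Each is written 5′ to 3′ on the strand of the gene, from RefSeq on GRCm38.p6, with TGACNNNGC and the ETS core CCGGAA in capitals on either strand.
Psmb5, chr14:54617996-54618245, minus strand: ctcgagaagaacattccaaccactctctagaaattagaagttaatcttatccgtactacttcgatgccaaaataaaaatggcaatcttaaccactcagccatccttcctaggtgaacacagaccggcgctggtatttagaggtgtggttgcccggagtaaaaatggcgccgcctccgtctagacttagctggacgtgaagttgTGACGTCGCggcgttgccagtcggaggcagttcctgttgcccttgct
Psmb6, chr11:70525107-70525356, plus strand: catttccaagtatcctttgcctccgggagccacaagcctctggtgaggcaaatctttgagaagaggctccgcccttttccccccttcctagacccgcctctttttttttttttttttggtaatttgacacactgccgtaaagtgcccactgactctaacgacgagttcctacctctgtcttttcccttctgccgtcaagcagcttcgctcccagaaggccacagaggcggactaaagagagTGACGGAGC
Psmc6, chr14:45329574-45329823, plus strand: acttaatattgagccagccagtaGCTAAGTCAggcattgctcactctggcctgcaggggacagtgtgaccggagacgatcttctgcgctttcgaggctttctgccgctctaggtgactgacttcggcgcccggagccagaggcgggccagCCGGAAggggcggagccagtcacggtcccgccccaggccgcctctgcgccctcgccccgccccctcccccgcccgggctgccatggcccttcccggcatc
Psmd12, chr11:107479278-107479527, plus strand: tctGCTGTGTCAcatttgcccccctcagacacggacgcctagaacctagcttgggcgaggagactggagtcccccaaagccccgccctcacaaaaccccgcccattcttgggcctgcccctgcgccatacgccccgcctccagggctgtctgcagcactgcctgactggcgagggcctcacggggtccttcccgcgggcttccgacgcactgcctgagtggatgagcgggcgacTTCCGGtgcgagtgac

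In Psmb6 the match ends at the start site, and in Psmb5 it begins 47 bases before it. Windows were found for 38 of the 45 genes, of which 5 (13.2%) hold TGACNNNGC, the fifth being the chaperone Psmd9. The same letters occur in 14.1% of the other genes of the tables that have a window and in 11.5% of all genes that have one. CCGGAA occurs in 18 of the 38 (47.4%), against 23.3% of the other genes of the tables. It is in 10 of the 14 regulatory genes with a window and in 2 of the 11 core genes (Psma5 and Psma6). The letters GGGCGG (GC box, 55.3%), CCAAT (34.2%) and TATAAA (7.89%) stood beside 61.6%, 40.2% and 8.62% of the other genes of the tables. The 5 searches used both strands, and none of these motifs contains another, although matches may overlap. These are matches of letters, counted without a test.

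The input series shows how the same genes are read from fewer cells. All 45 genes had at least 1 TPM in every pool of 10 or 100 cells and in both bulk RNA libraries. In single cells between 40 and 45 of them did, with cells 5, 6 and 9 at 45 and cells 7 and 8 at 40. All 14 core genes were at 1 TPM or more in all 11 cells, that is in 154 of 154 values. The 17 regulatory genes reached it in 183 of 187 values (97.9%), and the 4 others were Psmd3 and Psmd13, both of the lid, in cells 8 and 10. Other autosomal genes were read nearly as often: 587 with bulk RNA levels in the range of the core genes (229 to 595 TPM) reached 1 TPM in 95.4% of their single-cell values, and 880 in the range of the regulatory genes (176 to 560 TPM) did in 94.0%. Those other genes have longer transcripts, with medians of 2080 and 2108.5 bases beside 1162.5 and 1636 bases for the core and regulatory genes.

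The accessory genes made up the other single-cell values under 1 TPM. Psme4, encoding the PA200 activator, and Psmc3ip were under 1 TPM in 5 of the 11 cells each. Psmf1 was under it in 3 cells, Psmg2 in cells 7 and 10, Psme1 in cell 7 and Psme3 in cell 11. Psmd10, an assembly chaperone encoded on the X chromosome and named here after its values were seen, was listed at 0 in cells 1, 2, 3, 4 and 8 and between 78.0 and 303 TPM in the 6 others. In cells 1 to 4 this was not particular to Psmd10, since 96 other genes of the X chromosome, each over 50 TPM in bulk RNA, were all at 0 there as well. In cell 8, 31 of those 96 were at 0. Every pool of 10 or 100 cells had Psmd10, at 123 to 268 TPM.

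As deposited, levels in single cells were spread widely and reached lower than in 10-cell pools. In single cells the median core gene stood between 330 TPM (cell 10) and 793 TPM (cell 4), with a median over cells of 529 TPM. The median regulatory gene stood between 152 TPM (cell 7) and 450 TPM (cell 4), with a median of 268 TPM. In 10-cell pools the ranges were 517 to 803 TPM for the median core gene and 344 to 509 TPM for the median regulatory gene. Cells 7 and 10, the lowest for 1 or the other, are also those in which the listed genes hold the least of the TPM total (54.2% and 59.1%). With TPM rescaled to the listed genes the core medians ran from 558 to 847 TPM and the regulatory medians from 281 to 480 TPM. Psmb2 was the steadiest subunit between cells, with 587 TPM in the lowest, 868 TPM in the median and 1069 TPM in the highest cell, a coefficient of variation of 17.96%. Psmb4 had 223, 405 and 718 TPM in the lowest, median and highest cell (32.3%). The median coefficient of variation was 37.3% for the 14 core genes and 49.5% for the 17 regulatory genes, and 60.9% and 64.9% for other autosomal genes in their respective ranges of bulk level. Psmd13 (84.7%) and Psmd3 (80.6%) were the most variable regulatory genes, and Psma6 (62.4%) the most variable core gene.

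Pools of 10 cells were more even. Among core and regulatory genes the smallest coefficients of variation over the 12 pools belonged to Psma7 (8.86%), Psmd4 (10.0%) and Psmd11 (12.3%). The largest belonged to Psmd3 (61.0%), Psmd13 (39.0%) and Psmd2 (34.5%). Psmd3 had 27.7 TPM in the lowest, 114 TPM in the median and 238 TPM in the highest pool, whereas Psma7 stayed between 619 and 841 TPM. The medians were 15.8% for core and 16.7% for regulatory genes, and 24.9% and 25.4% for other autosomal genes of the same bulk range. Psmb2 had 16.0% and Psmb4 14.2%.

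Core genes were read higher from 10-cell pools than from bulk RNA. In all 12 pools of 10 cells, 13 of the 14 core genes lay above both bulk RNA libraries, and 8.95% of the 12325 genes considered did so. The exception was Psmb7, the trypsin-like site, with 225, 309 and 432 TPM in the lowest, median and highest pool beside 268 and 272 TPM in bulk RNA. Psma2 had 876, 1160 and 1550 TPM beside 577 and 595 TPM. Psmb2 had 727, 834 and 1107 TPM beside 458 and 489 TPM. Of the 17 regulatory genes, 9 lay above bulk RNA in every 10-cell pool, and Psmd2 and Psmd3 lay below it in every pool, as 40.5% of all genes did. Psmd2 had 134, 306 and 401 TPM in the lowest, median and highest pool beside 548 and 560 TPM in bulk RNA, and Psmd3 was given above beside 309 and 307 TPM. Psme3, the nuclear PA28 subunit, was below bulk RNA in every pool too. Because a library has a fixed TPM total, these are shares of it and not amounts per cell. Single cells were less even in TPM as deposited. In each of cells 7 and 10, 6 of the 14 core genes lay above both bulk RNA libraries. Of other autosomal genes at 20 TPM or more in bulk RNA, 12.5% did so in cell 7 and 15.4% in cell 10. These counts are low partly because the listed genes hold only 54.2% and 59.1% of the TPM total there. Rescaled to the listed genes, the median core gene had 622 TPM in cell 7 and 558 TPM in cell 10, beside 389 and 383 TPM in bulk RNA. No test was run between inputs, for which no separate cultures are named.

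**Figure D3:**
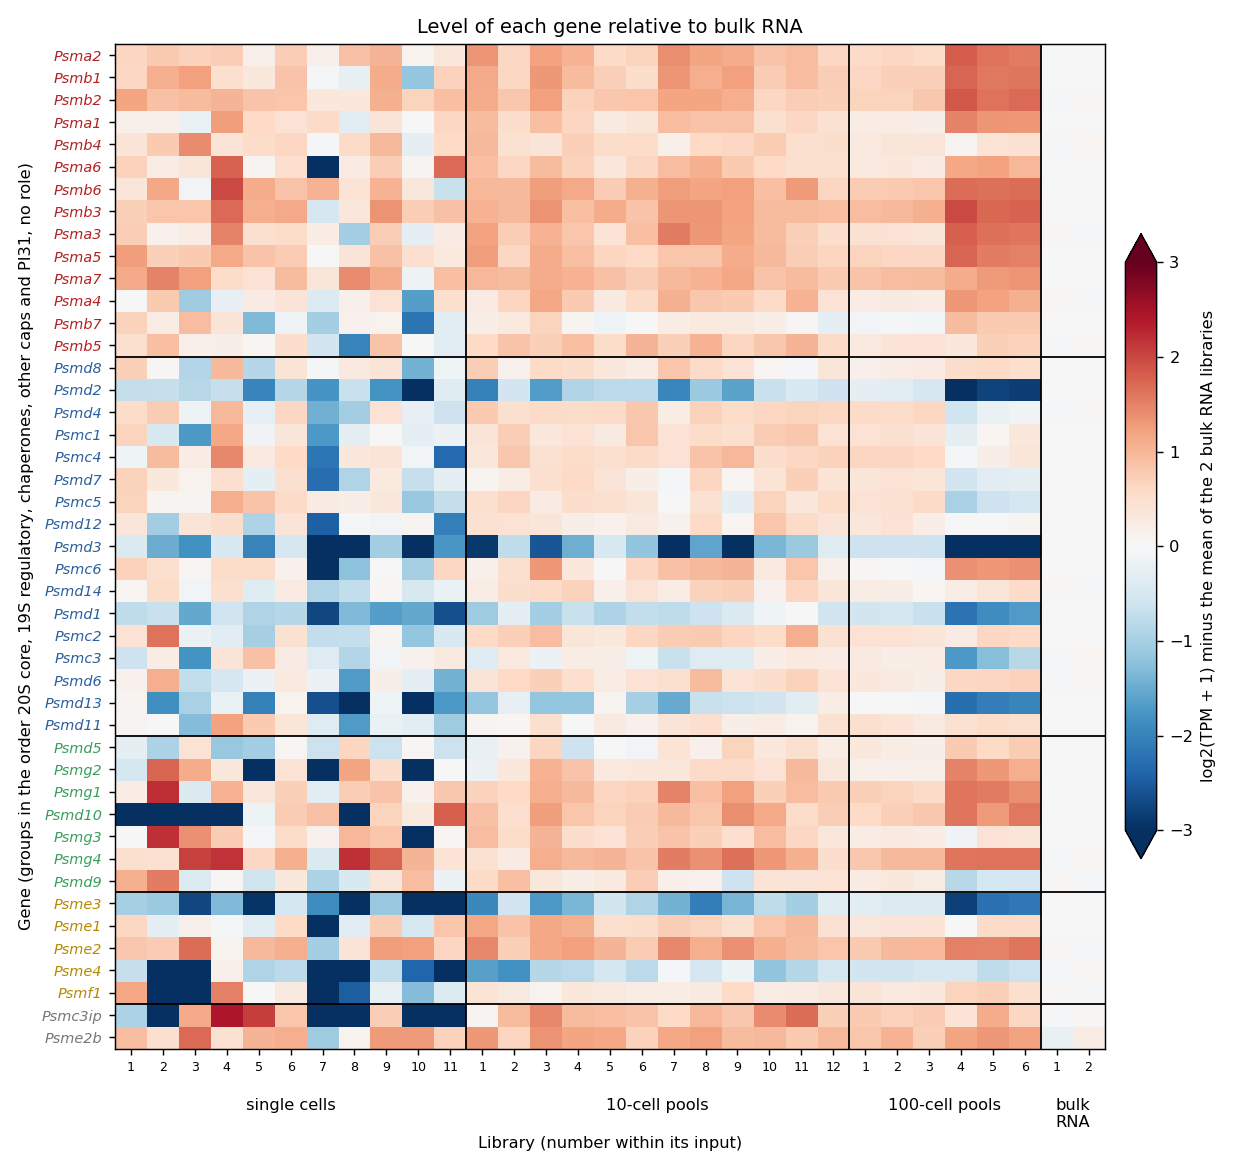
Level of each gene in the 31 libraries of the input series, as log2(TPM + 1) minus the mean of the 2 bulk RNA libraries (red higher, blue lower, colours end at a difference of 3), with genes in the same order as in the plot of levels by condition. The core rows are red in nearly all pools, Psmd2, Psmd3 and Psme3 are blue in every pool, and most core rows are reddest in 100-cell pools 4, 5 and 6.

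The 6 pools of 100 cells stood in 2 sets by these values, although the labels do not tell them apart. Psmb2 had 756, 749 and 834 TPM in pools 1 to 3 and 1716, 1476 and 1542 TPM in pools 4 to 6. Psma2 had 876, 902 and 864 TPM and then 2059, 1820 and 1728 TPM. Psmd3 went the other way, with 199, 201 and 201 TPM in pools 1 to 3 and 15.5, 17.5 and 19.01 TPM in pools 4 to 6. Psmd2 had 456, 442 and 393 TPM and then 66.8, 79.8 and 77.2 TPM. Psmd13 had 176, 175 and 173 TPM and then 35.9, 41.4 and 43.9 TPM, whereas both bulk RNA libraries had 176 and 177 TPM.

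Not all subunits parted in this way. Psmb4 had 329, 349 and 350.1 TPM in pools 1 to 3 and 288, 356 and 373 TPM in pools 4 to 6, and Psmd11 had 450, 429 and 394 TPM and then 449, 476 and 453 TPM. Psmc6, an ATPase gene named here after its values were seen, has the lowest GC content of the 45 transcripts (37.0%) and stood at 313, 305 and 296 TPM in pools 1 to 3 and at 792, 756 and 785 TPM in pools 4 to 6. Psmd3 has the highest GC content (58.3%). All 6 pools put 13 of the 14 core genes above both bulk RNA libraries (13.9% of all genes), and pools 1 to 3 alone do so for 13 as well (23.3%). Regulatory genes above bulk RNA numbered 5 in all 6 pools and 12 in pools 1 to 3. Below it in all 6 pools were 3 regulatory genes (Psmd1, Psmd2 and Psmd3) beside 52.5% of all genes, and the same 3 lay below it in pools 1 to 3, joined by the core gene Psmb7, beside 56.6%. The summed epithelial markers were 26600, 26365 and 27985 TPM in pools 1 to 3 and 7214, 9620 and 10682 TPM in pools 4 to 6, and the 5 blood genes summed to 68.6, 51.7 and 42.2 TPM and to 54.2, 154 and 44.4 TPM. Their part in the levels of the subunits was not tested.

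The ratio of core to regulatory genes summarises these shifts. In bulk RNA the log2 ratio of the medians was 0.33 and 0.32, near the values of the processing experiment. It was 0.33, 0.33 and 0.31 in 100-cell pools 1 to 3 and 1.94, 1.47 and 1.34 in pools 4 to 6. The likeness of pools 1 to 3 to bulk RNA holds for medians, since the log2 ratio of the mean levels was 0.50, 0.54 and 0.60 in these pools and 0.20 in both bulk RNA libraries. The 12 pools of 10 cells lay between 0.48 and 1.19 with a median of 0.75, and the 11 single cells between 0.58 and 1.27 with a median of 0.95. Every single cell and every 10-cell pool therefore exceeded bulk RNA, while single cells and 10-cell pools overlapped over most of their range.

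The slopes of levels on transcript length and GC content were steeper in 100-cell pools 4 to 6, where this ratio was higher, than in pools 1 to 3. Within pools 4 to 6 the length slope was steepest in pool 6, which had the lowest ratio of them. The core transcripts are shorter (median 1162.5 bases, 766 to 2911) than the regulatory ones (median 1636 bases, 1316 to 3112), with median GC contents of 48.9% and 49.7%. A linear fit of log2(TPM + 1) minus bulk RNA was made in each library across 6536 other autosomal genes, each at 20 TPM or more in bulk RNA. Slopes per doubling of length were between -0.85 and -1.40 in single cells and between -0.74 and -1.36 in 10-cell pools. Per 10 points of GC the 10-cell pools had slopes between -0.12 and -1.31, and their order did not strictly follow the ratio. Pool 5, with the shallowest GC slope, had a ratio of 0.50, and pool 3, with the steepest, had 0.81, while the highest ratio (1.19) was in pool 1 at -1.06. Among single cells the GC slope did not order with the ratio. Cell 6 had the lowest ratio (0.58) and the shallowest slope per 10 points of GC (-0.25). Cell 11 had the highest ratio (1.27) at a slope of -0.59, and cell 10 had 0.67 at -0.98. The fit took up 13.3% to 57.7% of the variance in single cells, with a median of 18.5%. In 100-cell pools 1 to 3 the slopes were -0.68, -0.72 and -0.74 per doubling of length and -0.30, -0.29 and -0.19 per 10 points of GC. In pools 4 to 6 they were -1.43, -1.44 and -1.48 per doubling and -1.72, -1.62 and -1.61 per 10 points. Over the 44 proteasome genes that are autosomal, the slopes per 10 points of GC in pools 4 to 6 were -2.11, -1.80 and -1.72. The slopes of these genes per doubling of length were -1.44, -1.37 and -1.31 in pools 4 to 6. In pools 1 to 3 they were -0.34, -0.39 and -0.39, shallower than those of the other genes.

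With this fit removed, the log2 ratio in pools of 10 cells was between -0.09 and 0.52, with a median of 0.19. It was below both bulk RNA libraries (0.34 and 0.31 after the same step) in 9 of the 12 pools. The fit was made on other genes, whose length slope in 10-cell pools had a median of -1.15 per doubling. For the proteasome genes that median was -0.71, so the step removed a steeper length slope than they showed. Above the fit in every 10-cell pool were 7 of the 14 core genes and 8 of the 17 regulatory genes, beside 20.3% of the other genes of the fit, and the median residual was 0.29 in the core and 0.32 in the regulatory genes. Single cells lay between -0.10 and 0.99 with a median of 0.24, and 100-cell pools 1 to 3 at 0.21, 0.22 and 0.12. In 100-cell pools 4 to 6 the ratio fell to 1.11, 0.96 and 0.81 and stayed above bulk RNA. There Psmd3 was at -1.84, -1.84 and -1.73 and Psmd2 at -1.19, -1.03 and -1.05 on the log2 scale relative to the fit, and Psma2 at 1.57, 1.41 and 1.38. Whether length and GC content account for the difference between the particles was not tested.

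**Figure D4:**
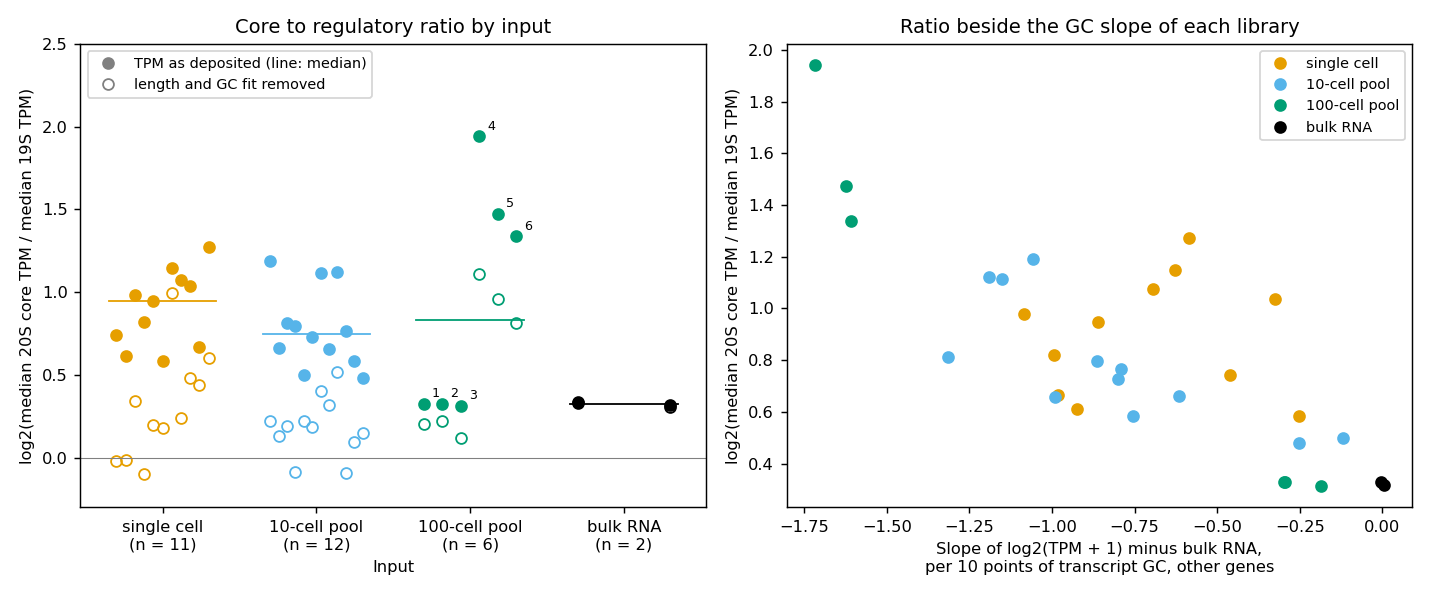
Left, log2 ratio of the median core TPM to the median regulatory TPM in each library by input, as deposited (filled, line at the median) and with the length and GC fit removed (open), with the 100-cell pools numbered. Right, the deposited ratio beside the slope of other autosomal genes on GC content in the same library. Bulk RNA and 100-cell pools 1 to 3 lie near 0.3, and 100-cell pools 4 to 6, with the steepest slopes, lie between 1.34 and 1.94.

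Other genes of the pathway also differed in level between inputs. Nfe2l1 had 272 and 257 TPM in bulk RNA, a median of 18.8 TPM in 10-cell pools and a median of 13.1 TPM in single cells, of which 10 of 11 reached 1 TPM. The unfoldase Vcp, another housekeeping gene of the study's panel, had 453 and 458 TPM in bulk RNA and 62.6, 126 and 236 TPM in the lowest, median and highest 10-cell pool. Pomp stood at 296 and 332 TPM in bulk RNA and at 508, 661 and 866 TPM in the lowest, median and highest 10-cell pool. Nfe2l1 and Vcp thus lay below bulk RNA in every 10-cell pool, as 40.5% of all genes did, and Pomp above it, as 8.95% did. Adrm1 had 206 and 221 TPM in bulk RNA and 133, 268 and 339 TPM in the lowest, median and highest 10-cell pool. The immunoproteasome genes stayed low in every input, with Psmb8 at no more than 16.5 TPM, Psmb9 at no more than 5.97 TPM and Psmb10 at no more than 66.1 TPM, the last in a single cell.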

How the data were processed

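TPM of 43 libraries was analysed. The authors aligned reads to mm10 (STAR 2.52 per the submitters' processing notes), counted them per gene with featureCounts, normalized by the upper quartile and deposited TPM. Annotation, gene filter and strand of counting are not given in the sources used here. The tables were normalized separately, so tests stay within a table. The members, roles and gene lists were chosen with earlier results of these data known.

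From the deposited TPM, log2(TPM + 1) was fitted over all genes with limma (3.58.1, R 4.3.3) with a mean-variance trend, 4 conditions and Benjamini-Hochberg adjustment at 0.05, after keeping genes at 1 TPM or more in 3 or more of 12 libraries. The step was tested on simulated data. Alternatives changed the pseudocount, filter, normalization, trend, replicate block, threshold or libraries. Inputs were described without a test (Python 3.11.15, numpy 2.4.6, pandas 2.3.3). Transcript length, GC content and 31-base words come from the GENCODE annotation of mm10, which matched 96.3% of symbols. Columns left unused numbered 0. Genes named are those of lowest p overall or in a pair, the highest and lowest of each role, Psmb2 and Psmb4, and those of extreme variation or detection in the inputs. Psma8 and Psmb11 were not analysed here. An allele of the line and a gene of the related list are not reported here.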

Additional observations from a re-analysis of the deposited data

How the results depend on the processing

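The 7 counts of proteasome genes past the threshold (4 conditions and 6 pairs) stayed at 0 under all 139 alternative settings. The 12 named differences kept their direction in all 240, with a lowest adjusted p of 0.272 from limma. They had been picked for a low p in these same libraries, so a kept direction is little evidence of stability. Over the settings, proteasome genes at an unadjusted p under 0.05 numbered 0 to 3 among the 4 conditions, 0 to 4 in Pre-enriched, 0 to 5 in FACS-only and 1 to 5 in Mock against Pre-FACS, 1 to 8 in Pre-enriched against FACS-only, and 0 to 3 in both other pairs. Counts over all genes moved too. Among the 4 conditions limma called 13 genes, 7 without the filter, 1 without a trend, 61 with the replicate number as a block and 1 to 17 with a library left out. Same-numbered libraries of different conditions correlated in their deviations at -0.04 to 0.23, with a median of 0.07 and 2 of 18 pairs over 0.1, and differently numbered ones at a median of -0.03 with 0 of 36 over 0.1. Of 12 libraries, 9 correlated best with their own number, a hint of pairing from the data. The labels name nothing shared by a number and not every pair was over 0.1, so the numbers were not used to pair libraries. With the block the adjusted counts of proteasome genes stayed at 0, and those at an unadjusted p under 0.05 among the 4 conditions went from 1 to 3.

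Removing the length and GC fit and leaving out 100-cell pools 4 to 6 were chosen after seeing the data. With the length and GC fit removed, the log2 ratio was 0.24 in single cells and 0.19 in 10-cell pools, below the deposited medians. Without 100-cell pools 4 to 6, core genes below bulk RNA in every 100-cell pool numbered 1 (Psmb7) in place of 0, and regulatory genes above it 12 in place of 5. The ratio of mean in place of median TPM was 0.20 in bulk RNA, and 0.50 to 0.60 in 100-cell pools 1 to 3.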
